A study of Drosophila melanogaster with 4 samples.

Results

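The Snail family cluster is a stretch of chromosome arm 2L given as the place of the genes worniu (wor), escargot (esg) and snail (sna), and the peaks of the transcription factor Hairy within it are described here. That these genes lie between its edges was not checked here, because the gene table at hand uses another build. A peak was a member when its midpoint lay on 2L between 15200001 and 15520000 in Release 5 coordinates, a stretch of 320 kb. This rule uses position alone and no value of the peaks, though earlier results of these data were known when it was set. By this rule 30 peaks were members, out of 1450 on 2L and 8958 in the whole list. The series holds 2 libraries from Hairy ChIP and 2 from input, all made from untreated Drosophila melanogaster embryos of a single strain, Y cn bw sp. Its genotype is given as y[1] with oc[R3.2], then Gr22b[1] with Gr22d[1], next cn[1] and CG33964[R4.2] and, after these, bw[1] with sp[1], and last LysC[1], lab[R4.2], MstProx[1] and also GstD5[1] with Rh6[1]. The labels stage the embryos at 0 to 8 h, whereas the collection protocol speaks of a laying of 8 to 16 h. The ChIP used KW3-h-D1, a rabbit polyclonal serum against Hairy, and the embryos were whole, so a peak cannot be given to a tissue. The deposited data are 1 peak list for all 4 libraries, with a start, an end and the authors' score for each peak. The score has no named scale and serves to order peaks within the list, apart from a correlation of its log2 values with width. Since the list does not separate the libraries, their depth is unknown and no value has a replicate error. For the same reason no test between the stretch and the rest of the arm was made. Its values are instead set beside those of the other 70 complete windows of 320 kb on 2L, whose spread is given.

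Snail family proteins are zinc finger transcription factors that mostly repress their targets. Snail itself is best known for keeping ectodermal genes off in the mesoderm as that tissue folds inward at gastrulation, Escargot for keeping imaginal and stem cells diploid and undifferentiated, and Worniu for its role in neuroblasts, where the 3 proteins act in part redundantly. Hairy is a basic helix-loop-helix repressor, a product of a pair-rule segmentation gene, that works with the co-repressor Groucho and also binds CtBP, a co-repressor that Snail uses too. The genes of Groucho and CtBP (gro and CtBP) and of the related zinc finger proteins Scratch (scrt) and Kahuli (Kah), and CG12605, all lie on chromosome 3 and have no place in the stretch.

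The gene annotation at hand is of Release 6, another build than that of the peak list, so it gave gene names and order only, and peaks are named by position and not by gene. In it all 3 genes were found, in the order esg, wor and sna along 2L. Between esg and wor it lists 7 genes, among them the protein-coding genes CG15258 and CG44869, and between wor and sna 5 genes, of which CG4161 codes for a protein. The other 9 of these 12 genes are long noncoding RNAs. The neighbour before esg is nht, a gene whose product is a testis-specific TBP-associated factor, and the one after sna is Tim17b2, named for a subunit of the mitochondrial import machinery.

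Hairy peaks were more numerous in the stretch than in most of the arm. Its 30 peaks make a density of 93.8 per Mb, against a median of 57.8 per Mb in the other 70 windows, with quartiles of 36.7 and 75 and extremes of 6.25 and 203.1 per Mb. Of those windows 10 held more peaks, 2 held the same number and 58 held fewer. Peaks covered 4.41% of the stretch, against a median of 2.64% in the other windows (quartiles 2.05% and 3.85%), and 13 windows had a higher coverage. The stretch is therefore above the upper quartile of 2L on both measures, and well inside the range of the arm. The fullest window of the arm held 65 peaks and had 12.8% of its length covered.

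**Figure D1:**
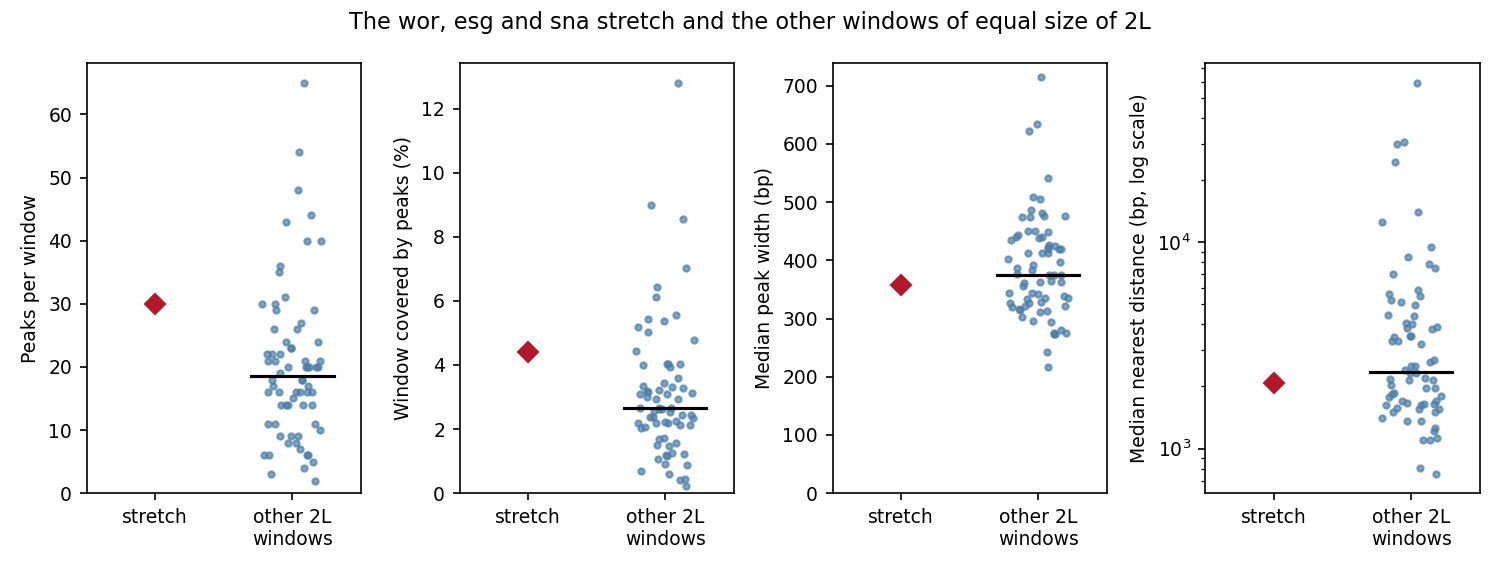
Peaks per window, percent of the window covered, median peak width (bp) and median distance between a peak's midpoint and the nearest other midpoint (bp, log axis) in the wor, esg and sna stretch (diamond) and in the other 70 windows of 320 kb on 2L (circles, line at their median). The stretch stands above the line for number and coverage and close to it for width and distance.

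The members were bounded on both sides by long regions without a peak. The windows next to it on either side held 11 peaks each, or 34.4 per Mb. Coverage was 2.18% in the window on the side of lower coordinates and 2.43% on the side of higher coordinates. The first member began 113.0 kb after the end of the nearest peak outside, which lies at 15116069 to 15116895 and scored 15.12. After the last member 79.5 kb passed before the next peak, at 15579081 to 15580759, which scored 25.49. Of the 1449 gaps between neighbouring peaks of 2L, 28 were longer than the first of these and 56 longer than the second. The median gap was 4.72 kb. A fixed edge falls more often in a long gap than in a short one, so these ranks do not make the gaps unusual. Within the other 70 windows the longest run without a peak had a median of 85149 bp, so empty runs of such length were common on the arm. The 30 members thus fill a block of 269.6 kb, from 15229934 to 15499566, with an empty region on each side. Shifting the edges of the stretch by 20 kb either way left the same number of peaks, 30, inside it. Splitting the arm at every gap of at least the length of the second, a choice made after the values were seen, gave 58 blocks, of which 13 held more peaks than this one. The median of the other blocks was 15 peaks.

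Peak widths in the stretch were ordinary for the arm. The median member was 357 bp wide (quartiles 237 and 494 bp), against 383 bp for the 1420 other peaks of 2L (264 and 591 bp). Among the windows the stretch was 43rd of 71 from the widest median, the median of the other windows being 376 bp. Of the members, 3 (10.0%, 95% Clopper-Pearson interval 2.11% to 26.5%, counting error only) were at least 1 kb wide, against 7.04% of the other peaks of 2L. The narrowest members, 2 of them, had 201 bp, the smallest width in the list.

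Scores were also close to those of the arm. The members' scores ran from 8.40 to 33.82 with a median of 12.4, against a median of 12.9 on the rest of 2L, where they ran from 6.55 to 156.6. The highest score was larger than that of the stretch in 35 of the 70 other windows and smaller in 35. Of the members 8 (26.7%, interval 12.3% to 45.9%) scored at or above the upper quartile of the whole list, 18.47. The share was 20.8% for the rest of 2L and 25.3% for the whole list. The interval is wide and treats neighbouring peaks as independent, so no conclusion was drawn from it. In the highest 10% of the list by score, 27.47 and above, were 2 members (6.67%), against 6.41% of the rest of 2L. As many as 8 members were at or below the lower quartile of 10.36, against 25.9% of the rest of 2L. The share of peaks at each of these levels is near the background of the arm.

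The strongest member, at 15334115 to 15335404, scored 33.82 and was 1290 bp wide. It was the 52nd strongest peak of the arm and the 570th of the list, and it stood alone, with 14.0 kb of sequence free of peaks before it and 15.0 kb after it. The second, at 15370343 to 15370769, scored 28.17 with a width of only 427 bp. The third, at 15476996 to 15478462, scored 25.93 and was the widest member at 1467 bp. It is the strongest member of the densest group, described below.

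The other members at or above the upper quartile scored between 18.47 and 23.76. The pair at 15248956 to 15249492 (score 23.76, 537 bp) and 15251286 to 15252683 (19.82, 1398 bp) had their midpoints 2.76 kb apart, with a weak member between them. Farther along were the peak at 15319667 to 15320161 (22.91, 495 bp), that at 15423891 to 15424579 (22.08, 689 bp) and that at 15441747 to 15442159 (18.47, 413 bp). Together the 8 account for 47.6% of the bases covered by members. The first member of the stretch, at 15229934 to 15230647, scored 10.15 over 714 bp, and the last, at 15499339 to 15499566, scored 11.72 over 228 bp. The remaining 20 members scored 8.40 to 16.57 (median 11.6) with widths of 201 to 780 bp (median 294 bp).

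**Figure D2:**
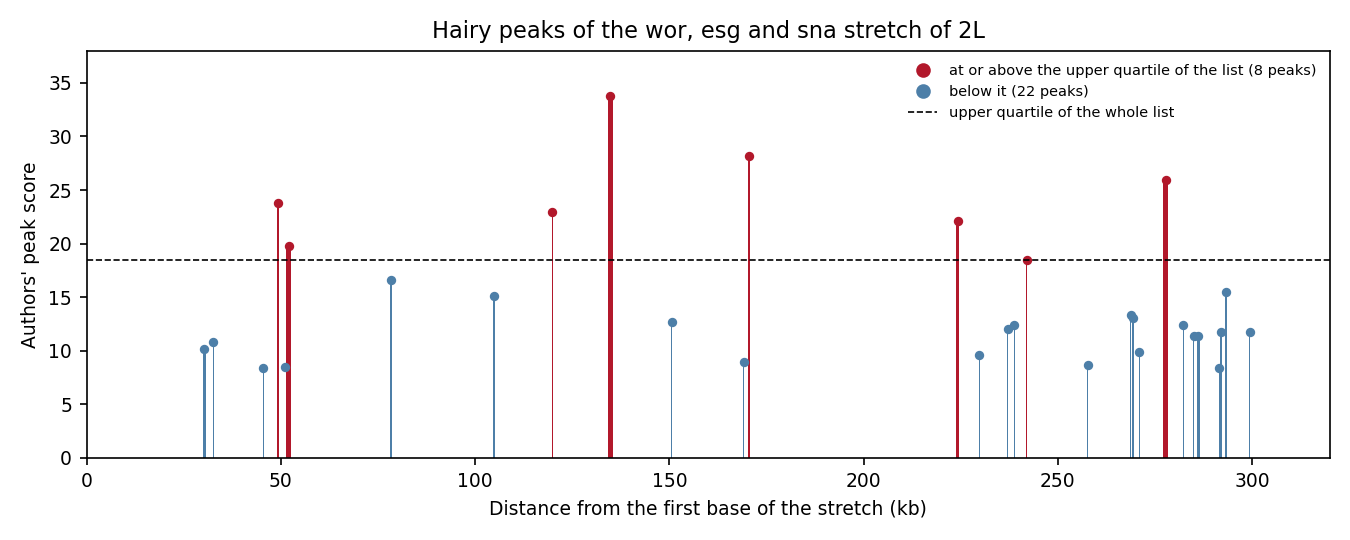
Each bar is a member at its place along the stretch (kb from its first base), drawn to its width, with the authors' score as height; red bars reach the upper quartile of the list (18.47, dashed line) and blue bars do not. The 8 red bars are spread over the whole occupied length, while most of the low blue bars stand together at the right.

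Stronger members were wider, as elsewhere on the arm. The 8 members of the upper quartile had widths of 413 to 1467 bp around a median of 613 bp, against 294 bp (201 to 780 bp) for the other 22, and all 3 members of at least 1 kb were among the 8. Across the 30 members, Spearman's rho between width and score was 0.69, and across the 1420 other peaks of the arm it was 0.66. Pearson's r of the log2 values was 0.71 over the members and 0.65 over the others. These correlations are descriptions across peaks of the same list, which share libraries and a peak caller. Examples of peaks that depart from the relation are the second strongest, which was narrow for its score, and the members of 714 bp and 780 bp. The latter scored 10.15 and 11.40. These were picked by eye, without a measure of departure, and other members depart as well.

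**Figure D3:**
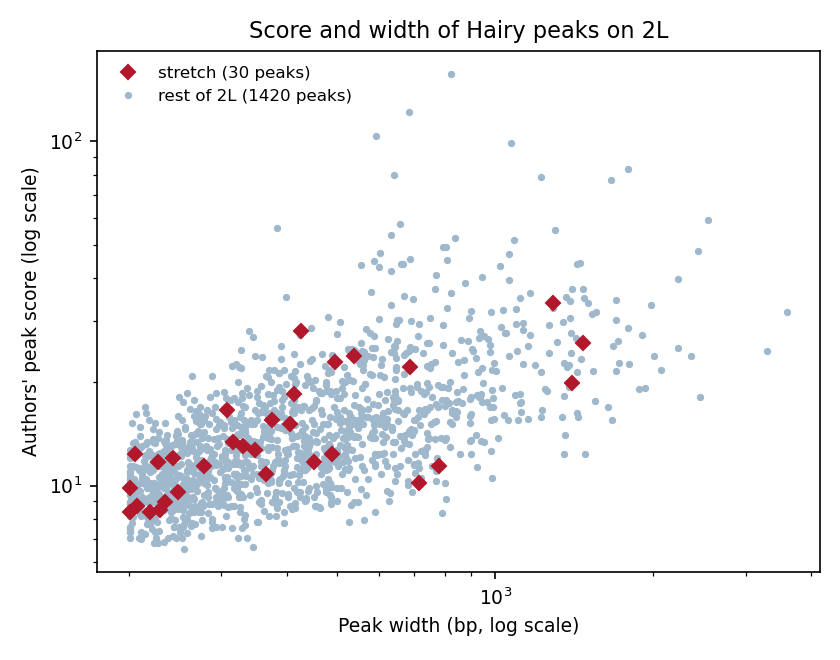
The authors' score against peak width in bp, both on log axes, for the 30 members (diamonds) and the 1420 other peaks of 2L (circles). The members lie within the cloud of the arm (members up to 33.82, the rest, far more peaks, up to 156.6).

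Neighbouring members were as close to each other as is usual on 2L. The median distance from a member's midpoint to the nearest other peak was 2076 bp, against 2160.5 bp over the other peaks of the arm. Of the members, 6 (20.0%, interval 7.71% to 38.6%) had another peak within 1 kb, against 25.5% on the rest of 2L. Within 10 kb it was 24 members (80.0%, interval 61.4% to 92.3%) against 85.0%. Of the 70 other windows 41 had a longer median distance to the nearest peak and 29 a shorter one. Each of the 6 other windows whose number of peaks was within 3 of that of the stretch had a larger share of peaks with a neighbour within 10 kb, from 86.2% to 100.0%.

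The members were divided into more groups than the peaks of most windows. When peaks with at most 10 kb between them were put together, the 30 members formed 11 groups. The median over the other windows was 7 groups, and the most was 11, which 2 windows reached. The number of groups can grow with the number of peaks, and the 6 windows within 3 peaks of the stretch had 7 to 10 groups. Beside all other windows, which mostly held fewer peaks, the median gap and the spread of the gaps were near the middle. The median gap was longer in 36 of the 70 other windows and the longest gap in 48. The gaps varied more, by their coefficient of variation, in 41 of the 69 with enough peaks. Among the 6 windows within 3 peaks of the stretch, 2 had a longer median gap and 2 a longer longest gap. In 3 of these 6 the coefficient of variation was larger. The gaps between neighbouring members ran from 127 bp to 53.1 kb with a median of 4849 bp. Of the 29 gaps 10 were over 10 kb, which restates the 11 groups. With a limit of 20 kb the groups were 4, and with 5 kb they were 15.

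Most of the close neighbours lay at the end of the stretch with higher coordinates. The largest group held 11 members over 31.0 kb, from 15468616 to 15499566, with scores of 8.40 to 25.93 and a median of 11.7. In it was the widest member, and 10 of its 11 peaks were below the upper quartile. Of the other windows 11 had a larger group than this and 2 had one of the same size. The next group, 5 members over 18.3 kb from 15423891 to 15442159, had scores of 9.56 to 22.08. Between it and the members of lower coordinates lay the longest gap inside the stretch, 53.1 kb from 15370769 to 15423891, with a peak of the upper quartile on each side. Toward the start a group of 4 members spanned 7.33 kb, from 15245358 to 15252683, and groups of 2 lay at 15229934 to 15232805 and at 15369034 to 15370769.

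Most of the lone peaks lay in a row in the part of lower coordinates. With more than 10 kb free on both sides were 6 members, 5 of them in a row between 15278176 and 15350790 and 1 at 15457584 to 15457791. They scored 16.57, 15.12, 22.91, 33.82 and 12.70 in order along the row, and the sixth scored 8.69. Their median score was 15.8, against 11.9 for the 24 members with a closer neighbour. On the rest of 2L the 198 lone peaks had a median of 12.4 and the 1222 others 13.0, the opposite order. This comparison was chosen after the values were seen, rests on 6 peaks whose scores run over nearly the whole range of the members, and was not tested.

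**Figure D4:**
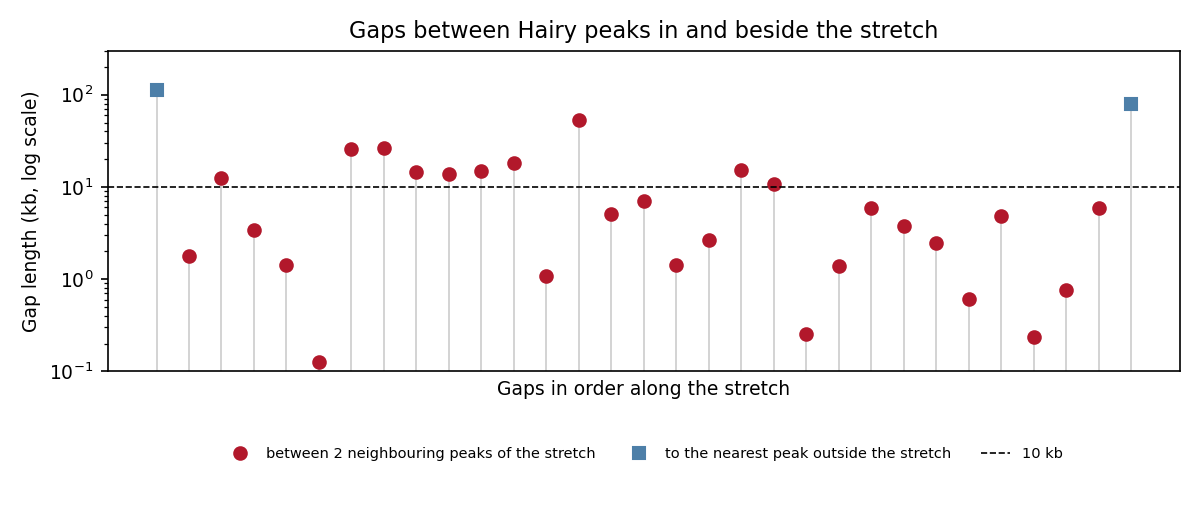
Length in kb (log axis) of each gap between neighbouring members in order along the stretch (circles) and of the gaps to the nearest peaks outside it (squares), with 10 kb as a dashed line. The 2 outer gaps, 113.0 and 79.5 kb, exceed the 29 inner ones, and a row of gaps over 10 kb crosses the part of lower coordinates.

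The 2 parts of 160 kb into which the stretch divides differed in number and spacing. The part of higher coordinates held 19 members and that of lower coordinates 11. The median distance to the nearest peak was 1.66 kb in the part of higher coordinates and 3.77 kb in the other. Median scores were 12.0 in the part of higher coordinates and 15.1 in the other, and each had 4 members at or above the upper quartile. A split as uneven is common on the arm. The fuller part held 63.3% of the members, and in 18 of the 34 other windows with 20 or more peaks it held a larger share. In steps of 20 kb, 5 of 16 steps were empty and the fullest, from 280 to 300 kb, held 7 members. These steps are given for the stretch alone, without the other windows beside them.

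The stronger members were spaced more widely than the median of such peaks elsewhere on the arm but within the range of its windows, a comparison that was also chosen after the values were seen. Taken alone, the 12 members at or above the list's median score of 13.18 lay at a median of 14.9 kb from the nearest other such peak, against 3.91 kb for the 683 others on 2L. Only 4 of the 12 (33.3%) had another within 10 kb, against 68.7% of the others. Of all 70 other windows 18 had a longer median distance, up to 116.3 kb, and 11 had a smaller share within 10 kb. Among the 26 other windows with 9 to 15 such peaks the median distance was 5.06 kb, with extremes of 1.11 and 18.3 kb, and 2 windows had a longer one than the stretch. In these 26 the median share within 10 kb was 71.0%. None had a smaller share than the stretch and 1 had the same share. The 8 members of the upper quartile are part of the 12, so their spacing is not a separate observation. Their median distance to the nearest such peak was 16.3 kb, against 9.45 kb for the 295 others on the arm. No spread over windows is given for these. The steps from one of these 8 to the next were 2.76, 67.9, 14.8, 35.8, 53.7, 17.7 and 35.8 kb between midpoints. Apart from the first pair they were at least 14.8 kb apart. Of the 22 members below the upper quartile 18 had some peak within 10 kb, and of the 8 at or above it 6 did.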

How the data were processed

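Per the labels, 2 Hairy ChIP and 2 input libraries were made from embryos fixed in 1.8% formaldehyde for 15 min, grouped here by title. Per the file headers the deposited list has FlyBase release 5 coordinates, 1-based, and MACS as source of each line; the tools in the submitters' processing notes are MACS2, BWA and CASAVA (1.7.0.3 and also 1.7.0.2), with the build BDGP5. Their roles, any pooling, the control, the threshold and the treatment of repeated reads decide which peaks are listed and were not given in the sources used here. The score of each peak is the authors' deposited score. The start and end are the other values the authors deposited. Depth is unknown.

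Members were taken by midpoint. Windows of 320 kb were laid so that the stretch is 1 of them, complete up to the last peak of 2L (71 in all). Coverage was clipped at window edges. Members and lists were chosen with earlier results of these data known. Peaks named are those at or above the list's upper quartile of score, the 3 widest and those beside the longest inner gap. Also named are the first and last member and the nearest outside. The lone members and the examples that depart from the relation of score and width were named after their values were seen. Nothing was tested, since the list has no samples and neighbouring peaks are not replicates. The window counts were checked on simulated data. Intervals are 95% Clopper-Pearson, treat peaks as independent and were not used as tests. Alternatives were other peak sets, joined peaks, moved edges and other windows. The Release 6 gene table served for names and order. Tools were scipy 1.17.1, numpy 2.4.6 and pandas 2.3.3 under Python 3.11.15, with figures by matplotlib 3.10.9.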

Additional observations from a re-analysis of the deposited data

How the results depend on the processing

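No paired analysis was possible because the list does not separate the libraries, so none could be left out either. Of 79 recomputed values 67 kept their level, taken as within 1.5 times for counts and sizes, within the interval for shares and within 10 percentage points of windows for ranks. Many of the 67 could not change. Moving the edges or removing the 1% widest peaks left the members the same, so only ranks could differ. Peaks and peaks per Mb are also counted apart, though one fixes the other. Keeping only stronger peaks moved most of the values recomputed under that setting and accounts for most of the values that moved. By its construction it lowers counts and raises scores everywhere. With the higher-scoring peaks alone (13.18 and above) the stretch held 12 peaks (37.5 per Mb, 2.54% covered), against medians of 8.5 peaks and 1.66% in the other windows. Its median score was 20.95, against 17.5, and 66.7% were at or above the upper quartile, against 42.9%. The nearest such peak was then at a median of 14942 bp, against 5590 bp. Within 1 kb 0 members had one, as in the median other window, and within 10 kb 33.3%, against 66.7%. The stretch ranked 19 of 71 by number and 57 by median width, against 11 and 43 with all peaks. Joining peaks within 500 bp left 27 peaks, with 0 within 1 kb in the stretch and in the median other window, as joining removes such pairs by its construction. A limit of 20 kb gave 4 groups in place of 11. Moved edges, removal of the 1% widest peaks, windows every 20 kb, windows before 20 Mb or on 2L, 2R, 3L, 3R and X, and, added after seeing the data, windows with 10 or more peaks, kept the ranks within that bound. The percentage of windows with more peaks was between 14.3% and 21.1% for these. The depth is unknown, so sequence between peaks may hold binding below the authors' threshold.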
